A study of Apis mellifera with 6 samples.

Results

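In newly-eclosed drone brains, the cuticular protein genes CPF2 and CPR5 had the highest transcript levels of all genes with assigned transcripts. Both were lower in workers, and lower still in queens. The account covers 7 genes that were chosen by name: the apidermins Apd-1, Apd-2 and Apd-3, the CPF genes CPF1 and CPF2, and the CPR genes CPR5 and CPR14. These are 7 of the 12286 genes to which deposited transcripts could be assigned, and 9 of 28409 deposited transcripts. Each of the 7 was found in the annotation and passed the filter on low counts.

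The libraries came from the central brains of adult honey bees (Apis mellifera) collected within an hour of eclosure, here the emergence of the adult. There were 2 libraries from drones, which are haploid males, 2 from queens and 2 from workers, which are both diploid females, and all were offspring of a single mother queen. The tissue was the brain without its optic lobes. In workers the authors also took care to remove the hypopharyngeal gland, which makes brood food. Each library was a pool of dissected brains, so that the spread between 2 libraries is the spread between pools and not between individual bees. The p-values below weigh differences between phenotypes against that spread, which was estimated with the help of all genes.

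The cuticle of an insect is a layer of chitin fibres and proteins that covers the body and also lines the tracheae and the foregut. CPR proteins carry the Rebers and Riddiford consensus, a domain that binds chitin, whereas CPF proteins are a smaller family defined by a short conserved stretch. Apidermins are small hydrophobic cuticle proteins described from the honey bee. Genes of all these families are best known from the epidermis in the days around a moult, and the bee cuticle is still hardening and darkening when the adult emerges.

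The 7 genes lie at 4 places of the Amel_HAv3.1 assembly. The apidermin genes among them form a cluster on chromosome 4. Apd-3 lies at chr4:4479531-4480371 and Apd-1 at chr4:4486092-4488233, both on the plus strand. Apd-2 lies at chr4:4488750-4490029 on the minus strand. The symbol apd-3 in lower case, at chr4:4454035-4457102, belongs to another gene. That gene is not among the 7 and is counted below with the further cuticle genes. Only 516 bases separate Apd-1 and Apd-2, which point towards each other, while 5720 bases separate Apd-3 and Apd-1. CPF2 (chr15:7840678-7842089, plus strand) and CPF1 (chr15:7842178-7843138, minus strand) also point towards each other and are 88 bases apart. CPR5 lies on chromosome 16 (chr16:726163-732625, plus strand) and CPR14 on chromosome 2 (chr2:2994710-3003825, minus strand). Apd-2 and CPF2 have 2 annotated transcripts each, and the other genes have 1. Members of these families resemble one another, and how far reads were divided between similar transcripts was not tested.

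Depth was between 7685185 and 44373783 estimated counts per library, and replicate 2 was the shallower library of each phenotype. CPF2 alone took 7.004% and 7.049% of all estimated counts in the 2 drone libraries, 0.223% and 0.222% in the 2 queen libraries, and 1.513% and 1.498% in the 2 worker libraries. CPR5, a CPR protein gene, took 2.436% and 2.504% of the drone counts, 0.337% and 0.316% of the queen counts, and 0.514% and 0.501% of the worker counts. Summed, the 7 genes held 10.01% and 10.08% of the drone libraries, 0.664% and 0.645% of the queen libraries, and 2.31% and 2.32% of the worker libraries. The libraries of a phenotype thus lay close together and those of different phenotypes far apart. The 95% Wilson intervals of these sums were narrow, at 9.999% to 10.02% for drone replicate 1 and 0.6416% to 0.6484% for queen replicate 2, and they cover counting error only.

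**Figure D1:**
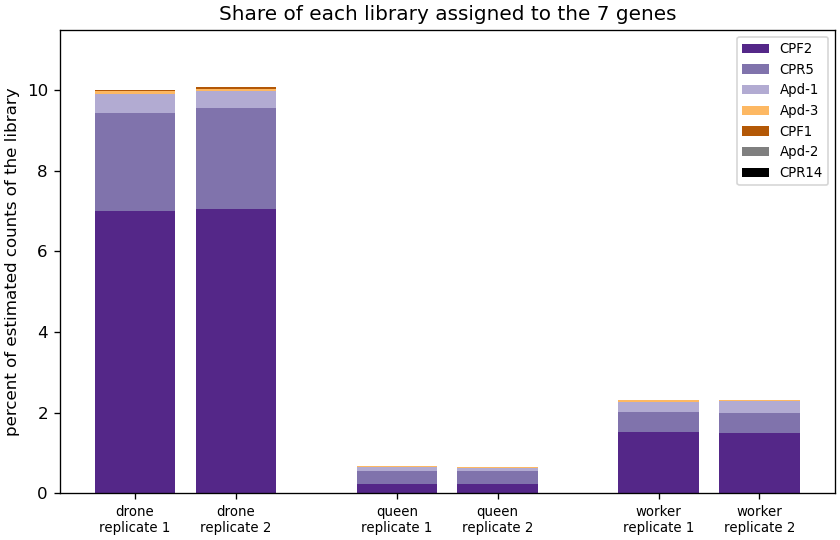
Percent of the estimated counts of each of the 6 libraries assigned to the 7 genes, stacked by gene, with the libraries in the order drone, queen and worker. CPF2 and CPR5 made up most of every bar, and the drone bars reached 10.01% and 10.08% against 0.664% and 0.645% in queens and 2.31% and 2.32% in workers.

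The make-up of this sum also varied. CPF2 was 70.0% and 69.9% of the counts of the 7 genes in drones, 33.5% and 34.4% in queens, and 65.5% and 64.5% in workers. In queens CPR5 had more counts than CPF2. The sum of CPF2 and CPR5 held between 83.4% (queen replicate 2) and 94.7% (drone replicate 2) of the counts of the 7 genes.

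Levels were compared between genes in TPM, the abundance unit of Kallisto, which is scaled to transcript length and to a fixed total per library. CPF2 stood at 195420 and 203711 TPM in drones, 7370 and 7587 TPM in queens, and 43001 and 42264 TPM in workers. Ranks were taken among the 12286 genes to which transcripts could be assigned. CPF2 was the most abundant of these in both drone libraries, ranked 6 in both queen libraries and ranked 2 in both worker libraries. CPR5 stood at 26312 and 27428 TPM in drones, 4451 and 4219 TPM in queens, and 5825 and 5807 TPM in workers. This made it the second gene of the drone libraries, while it ranked 15 in queens and 11 or 12 in workers.

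Apd-1 and Apd-3 were the abundant apidermins. Apd-1 measured 5279 and 5038 TPM in drones, 1153 and 1206 TPM in queens, and 2899 and 3393 TPM in workers. Apd-3 measured 3162 and 2807 TPM in drones, 1072 and 1153 TPM in queens, and 1559 and 1762 TPM in workers. For both genes the values of the 3 phenotypes did not overlap. With 2 libraries per phenotype this is a description only, and the share of all genes so separated was not counted. The ranks of Apd-1 were 10 and 11 in drones, 81 and 77 in queens, and 25 and 24 in workers.

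CPF1, the neighbour of CPF2, was found at 886 and 992 TPM in drones, 23.2 and 19.0 TPM in queens, and 208 and 201 TPM in workers. The remaining genes were scarce. Apd-2 had 33.8 and 8.55 TPM in drones, 3.62 and 9.06 TPM in queens, and 10.74 and 10.97 TPM in workers, from between 19 and 310 estimated counts per library. CPR14 had 3.50 and 0.184 TPM in drones, 3.095 and 4.995 TPM in queens, and 0.678 and 1.65 TPM in workers, from 70 and 1 estimated counts in drones, 56 and 42 in queens, and 4 and 6 in workers. The drone libraries disagreed for both of these genes, with replicate 1 far above replicate 2, and drone values overlapped those of queens and workers. Queen and worker values did not overlap, though neither gene was called between these castes, as given below. In mean TPM, the order of the genes in drones was CPF2, CPR5, Apd-1, Apd-3, CPF1, Apd-2 and CPR14. The same order was found in queens and in workers. In queens the levels of Apd-1 and Apd-3 all but met, at 1153 TPM in queen replicate 1 for Apd-1 and in queen replicate 2 for Apd-3, and those of Apd-2 and CPR14 overlapped. The other neighbours in this order were separated in every phenotype.

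**Figure D2:**
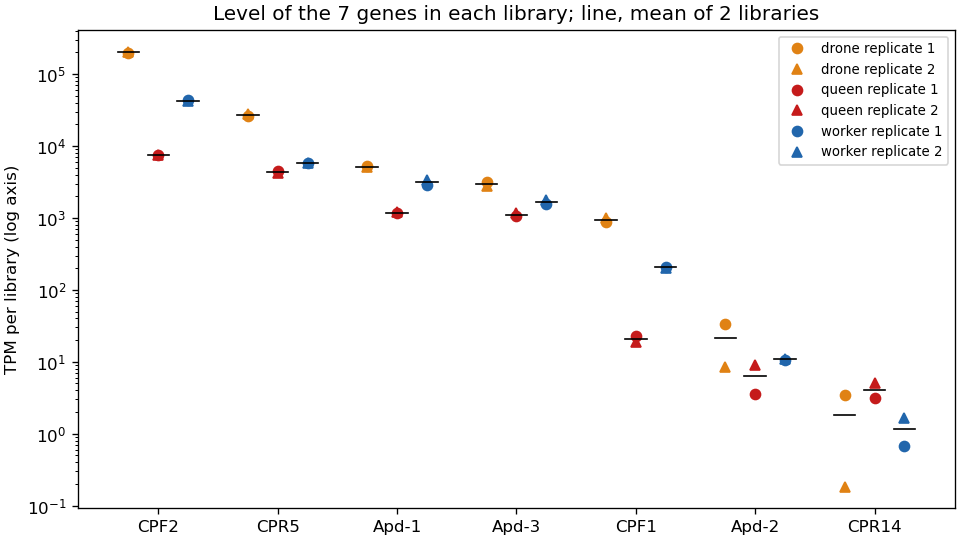
TPM of each of the 7 genes in each library on a log axis, with circles for replicate 1, triangles for replicate 2 and a black line at the mean of the 2 libraries. For CPF2, CPR5, Apd-1, Apd-3 and CPF1 the drone points lay above the worker points and the worker points above the queen points, whereas the drone points of Apd-2 and CPR14 were spread widely.

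The comparison of the 3 phenotypes asked whether these genes differ between the sexes and castes at emergence. In drone brains 6 of the 7 genes were higher than in queen brains and none was lower (edgeR quasi-likelihood test, FDR below 0.05). Of all 9685 genes tested, 13.8% were called higher in drones and 16.9% lower. CPF1 showed the largest difference of the 7, with 411 ± 27.5 CPM, counts scaled to the effective library size, in drones and 7.12 ± 1.31 CPM in queens (SD, n = 2 each), a log2 fold change of 5.81 ± 0.12 (SE, edgeR FDR 4.69e-10). CPF2 was 34.0-fold higher in drones (log2 fold change 5.09 ± 0.12, edgeR FDR 1.21e-09). By size of the change CPF1 was at place 16 and CPF2 at place 26 of the 1337 genes that were called higher in drones. CPR5 was 8.13-fold higher in drones (edgeR FDR 1.22e-08), Apd-1 was 5.74-fold higher (edgeR FDR 6.35e-08) and Apd-3 was 3.45-fold higher (edgeR FDR 1.39e-06).

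The call for Apd-2 was less secure. Its log2 fold change between drones and queens was 2.18 ± 0.61 with an edgeR FDR of 0.0226, but the drone value rested on replicate 1. Without drone replicate 1 the log2 fold change was 0.73 (edgeR FDR 0.391), and without queen replicate 1 it was 1.72 (edgeR FDR 0.206). CPR14 had a log2 fold change of -0.50 ± 0.77 (edgeR FDR 0.698), which turned to 0.21 without drone replicate 2 (edgeR FDR 0.805) and to -3.96 without drone replicate 1 (edgeR FDR 0.0180).

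Between drones and workers 5 of the 7 genes were higher in drones and none was lower, against 13.4% higher and 15.2% lower among all genes tested. CPR5, CPF2 and CPF1 differed by much the same amount, with log2 fold changes of 2.43 ± 0.10, 2.37 ± 0.11 and 2.37 ± 0.10, or 5.39-fold, 5.17-fold and 5.16-fold (edgeR FDR at most 1.62e-07). The apidermins Apd-3 and Apd-1 were 1.94-fold and 1.91-fold higher in drones (edgeR FDR 0.000140 and 7.39e-05). The CPF genes and CPR5 therefore exceeded the worker level by more than the apidermins did, a contrast between genes that was not itself tested. Apd-2 had a log2 fold change of 1.18 ± 0.62 (edgeR FDR 0.190) and CPR14 of 1.15 ± 0.95 (edgeR FDR 0.405). Without drone replicate 1 these turned to -0.27 (edgeR FDR 0.803) and -2.29 (edgeR FDR 0.241), and without drone replicate 2 they were 1.81 (edgeR FDR 0.0126) and 1.88 (edgeR FDR 0.0457).

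Between the female castes 5 of the 7 genes were lower in queens than in workers and none was called higher in queens, against 11.9% higher and 10.4% lower among all genes. CPF1 had 7.12 ± 1.31 CPM in queens and 79.6 ± 1.58 CPM in workers (SD, n = 2 each), so that the worker level was 10.9-fold the queen level (log2 fold change -3.45 ± 0.12, edgeR FDR 2.63e-08). The worker level was 6.58-fold the queen level for CPF2 (edgeR FDR 6.87e-08) and 3.01-fold for Apd-1 (edgeR FDR 2.73e-06). It was 1.78-fold for Apd-3 (edgeR FDR 0.000544) and 1.51-fold for CPR5 (edgeR FDR 0.00150). CPR5, the second most abundant of the 7 genes, thus showed the smallest of the called differences between the female castes. Apd-2 had a log2 fold change of -1.0 ± 0.66 (edgeR FDR 0.315) and CPR14 of 1.66 ± 0.94 (edgeR FDR 0.242).

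The median log2 fold change of the 7 genes was 2.52 for drones over queens, 1.18 for drones over workers and -1.0 for queens over workers, whereas the medians of all genes tested were -0.003, 0.015 and 0.033. A joint test of any difference by phenotype called 6 of the 7 genes, CPR14 being the exception (edgeR FDR 0.362), while 38.9% of all genes were called. The order drone over worker over queen, with a call in each of the 3 pairs, was found for Apd-1, Apd-3, CPF1, CPF2 and CPR5, and for 1.86% (180) of all genes tested. The 3 comparisons share libraries and are not independent of one another.

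RNA of a pooled tissue does not tell more cells of a type from more RNA per cell. Genes that mark other tissues were therefore read in the same libraries. Their TPM is part of a fixed total, of which the 7 genes took 23.1% and 24.0% in drones. In queens the 7 genes took 1.41% and 1.42% of it, and in workers 5.35% and 5.34%. Less of the total was thus left for all other genes in drones. The 4 opsin genes, which mark photoreceptors, summed to 1900 and 2090 TPM in drones, 579 and 619 TPM in queens, and 4539 and 4393 TPM in workers. Among them only the blue-sensitive opsin Blop had the order of the cuticle genes, at 841 and 914 TPM in drones, 12.3 and 12.9 TPM in queens, and 171 and 169 TPM in workers. Its log2 fold changes were 6.51 for drones over queens, 2.59 for drones over workers and -3.92 for queens over workers (edgeR FDR at most 9.95e-09). Lop1, the most abundant opsin here, was instead highest in workers, at 4363 and 4220 TPM against 1057 and 1175 TPM in drones.

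The other tissue lists had other orders. The 6 major royal jelly protein genes of the hypopharyngeal gland summed to between 6.77 and 14.3 TPM in drones and queens, and to 23304 and 23673 TPM in workers. The 5 matched of 8 muscle genes summed to 141 and 128 TPM in drones, 1516 and 1513 TPM in queens, and 220 and 272 TPM in workers. The 6 fat body genes lay between 1184 and 1581 TPM in all libraries, nearly all of it from Tsf1, the iron carrier transferrin. Neuronal genes (5 matched of 8) summed to 256 and 221 TPM in drones, 651 and 651 TPM in queens, and 361 and 416 TPM in workers, and glial genes (2 matched of 5) summed to 2449 and 2573 TPM in drones, 5261 and 5459 TPM in queens, and 4430 and 4632 TPM in workers. Neuronal, glial, muscle and hypopharyngeal gland sums were thus lowest in drones, although drones and queens both had little of the gland genes. In that order, 2 of 5, 1 of 2, 5 of 5 and 1 of 6 genes were called lower in drones than queens. Against workers these counts were 2, 1, 2 and 6, and in neither comparison was any gene of these lists called higher in drones. Of all genes tested, 16.9% and 15.2% were called lower in drones. Nearly all of the glial sum came from GlnS, and nearly all of the neuronal sum from brp and Amih. Syt1, Syx1A and Eaat-2 were instead higher in drone replicate 1 than in both worker libraries, but in drone replicate 2 they were lower than in both. In none of the 6 lists did the sums separate the libraries in the order drone, worker, queen. The fat body sums, carried by Tsf1, came nearest, at 1494 and 1581 TPM in drones. Queens had 1233 and 1224 TPM and workers 1184 and 1299 TPM, which overlapped. The fat body genes did not move together. Of the 6, 3 were called higher in drones than in queens and 2 lower, against 13.8% and 16.9% of all genes tested. No listed gene was under 1 count in every library. The part of these tissues in the cuticle gene differences was not tested.

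The proportions of the genes to one another also differed between libraries. The ratio of CPF2 to CPR5 in TPM was 7.43 and 7.43 in drones, 1.66 and 1.80 in queens, and 7.38 and 7.28 in workers. Drones and workers thus had this pair of genes in nearly the same proportion, while in queens CPF2 was low relative to CPR5. The ratio of Apd-1 to Apd-3, neighbours on chromosome 4, was 1.67 and 1.80 in drones, 1.08 and 1.05 in queens, and 1.86 and 1.93 in workers. Here too the queen libraries stood apart from the others. The convergent pair CPF2 and CPF1 had a ratio of 220 and 205 in drones, 318 and 400 in queens, and 206 and 211 in workers. The queen values of the last ratio rest on 327 and 123 estimated counts of CPF1.

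Ratios to Apd-1 separated all 3 phenotypes. CPF2 over Apd-1 was 37.0 and 40.4 in drones, 6.39 and 6.29 in queens, and 14.8 and 12.5 in workers. CPR5 over Apd-1 had another order, at 4.98 and 5.44 in drones, 3.86 and 3.50 in queens, and 2.01 and 1.71 in workers, so that workers and not queens had the lowest values. All these ratios are given as a description, without a test.

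**Figure D3:**
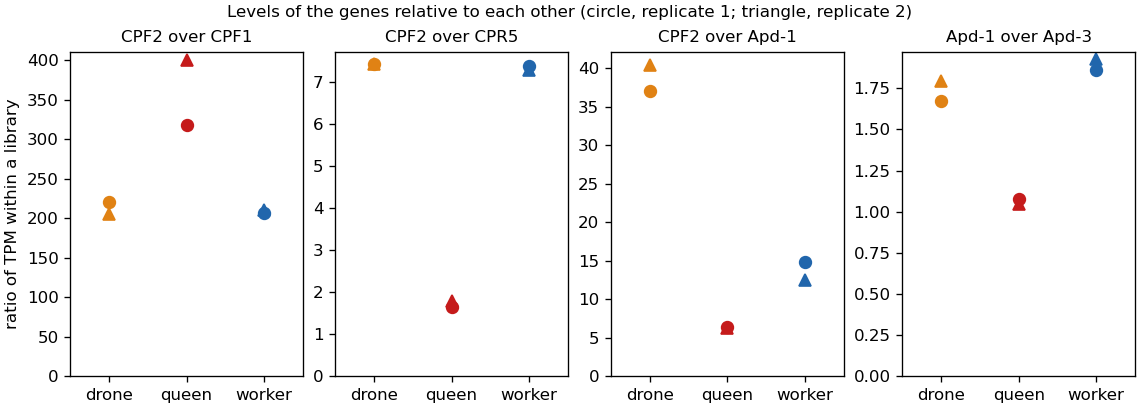
Ratio of TPM within a library for 4 pairs of genes, with drones, queens and workers on the x axis, circles for replicate 1 and triangles for replicate 2, and each y axis starting at 0. CPF2 over CPR5 was 7.43 and 7.43 in drones and 7.38 and 7.28 in workers, above 1.66 and 1.80 in queens, whereas CPF2 over Apd-1 differed among all 3 phenotypes.

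Both transcripts of CPF2 were abundant. They are 765 and 606 nucleotides long with 3 exons each, and they differ in the end of the middle exon, which runs over chr15:7840909-7841251 (343 bases) in the longer and over chr15:7840909-7841092 (184 bases) in the shorter transcript, 159 bases less. The shorter transcript made up 33.4% and 31.5% of the CPF2 TPM in drones, 27.9% and 24.7% in queens, and 27.8% and 27.7% in workers. The drone share of 32.5% ± 1.30 lay above 26.3% ± 2.25 in queens and 27.7% ± 0.119 in workers (SD, n = 2 each), with no overlap, but this difference was not tested. At the level of single transcripts the longer form alone stood at 130193 and 139471 TPM in drones, 5314 and 5713 TPM in queens, and 31033 and 30573 TPM in workers. Both forms thus followed the order of the gene. For Apd-2, the 601-nucleotide transcript was assigned 29.4 and 0 estimated counts in drones, 9.41 and 11.4 in queens, and 0 and 0 in workers, and the 508-nucleotide transcript carried the rest.

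Across the 6 libraries the log2 CPM of CPF1 and CPF2 varied together (Pearson r = 0.997), as did Apd-1 with CPF1 (r = 0.995), Apd-1 with CPF2 (r = 0.992) and Apd-1 with Apd-3 (r = 0.979). CPR5 was most like Apd-3 among the 7 (r = 0.944). Correlations of Apd-2 with the 5 abundant genes were between 0.65 and 0.78, and those of CPR14 were between -0.53 and -0.36. These values describe 6 libraries of 3 phenotypes, which carry most of the variation.

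The genes with the pattern most like each member were looked for among 7537 other genes with a mean of at least 1 CPM. For CPF2 the gene with the highest correlation was itself a cuticle gene, Cpap3-c (r = 0.9997), which has chitin-binding domains of the peritrophin type. Cpap3-c had 572 and 612 TPM in drones, 101 and 110 TPM in queens, and 272 and 270 TPM in workers. For the other members it was LOC408520 for Apd-1, LOC410489 for Apd-2, LOC411209 for Apd-3, LOC408774 for CPF1, LOC551344 for CPR5 and LOC411099 for CPR14, with r between 0.979 and 0.9997. The annotation used gives these genes no name beyond the locus number. The mean pattern of the 7 genes, each centred on its own mean, was most like LOC724838 (r = 0.997) and LOC412907 (r = 0.996), followed by LOC409723, LOC412714 and LOC100577576 (r between 0.986 and 0.989). LOC724838 had 58.6 and 14.0 TPM in drones, 0.453 and 0.877 TPM in queens, and 3.74 and 5.61 TPM in workers, so that its drone replicate 1 exceeded replicate 2 as in Apd-2 and CPR14.

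The annotation held 20 further genes named as CPR, Cpap3 or apidermin genes, and 13 of them passed the filter. Between drones and queens 4 were higher in drones, 2 were lower and 7 were not called, with a median log2 fold change of 0.09. Between drones and workers 5 were higher in drones, 4 were lower and 4 were not called (median 0.19). Between queens and workers 1 was higher in queens, 6 were lower and 6 were not called (median -0.71). Of all genes tested, 13.8%, 13.4% and 11.9% were called higher in the phenotype named first, and 16.9%, 15.2% and 10.4% lower. For queens against workers most calls of this list were lower in queens, as among the 7 genes, whereas its calls in the drone comparisons went in both directions.

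Among the 13 tested genes, 4 were called in the order drone over worker over queen, against 1.86% of all genes tested. They were CPR27, Cpap3-b, Cpap3-c and Cpap3-d. These 4 had a mean TPM of at least 323 over the 6 libraries, while the other 9 had at most 154. CPR27, a CPR gene on chromosome 4, had 1566 and 1666 TPM in drones, 29.6 and 28.9 TPM in queens, and 493 and 528 TPM in workers. Its log2 fold change of 6.17 ± 0.10 for drones over queens exceeded that of CPF1, and the corresponding fold was 72.1 (edgeR FDR 1.19e-10). Cpap3-d had 1639 and 1774 TPM in drones, 348 and 360 TPM in queens, and 575 and 614 TPM in workers. Cpap3-b had 737 and 664 TPM in drones, 138 and 134 TPM in queens, and 289 and 343 TPM in workers. Both were called in all 3 pairs. The opposite direction was seen in CPR22, a gene close to CPR14 on chromosome 2. CPR22 had 46.5 and 55.6 TPM in drones, 304 and 294 TPM in queens, and 84.8 and 136 TPM in workers (log2 fold change of drones over queens -2.22 ± 0.23, edgeR FDR 4.70e-05).

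**Figure D4:**
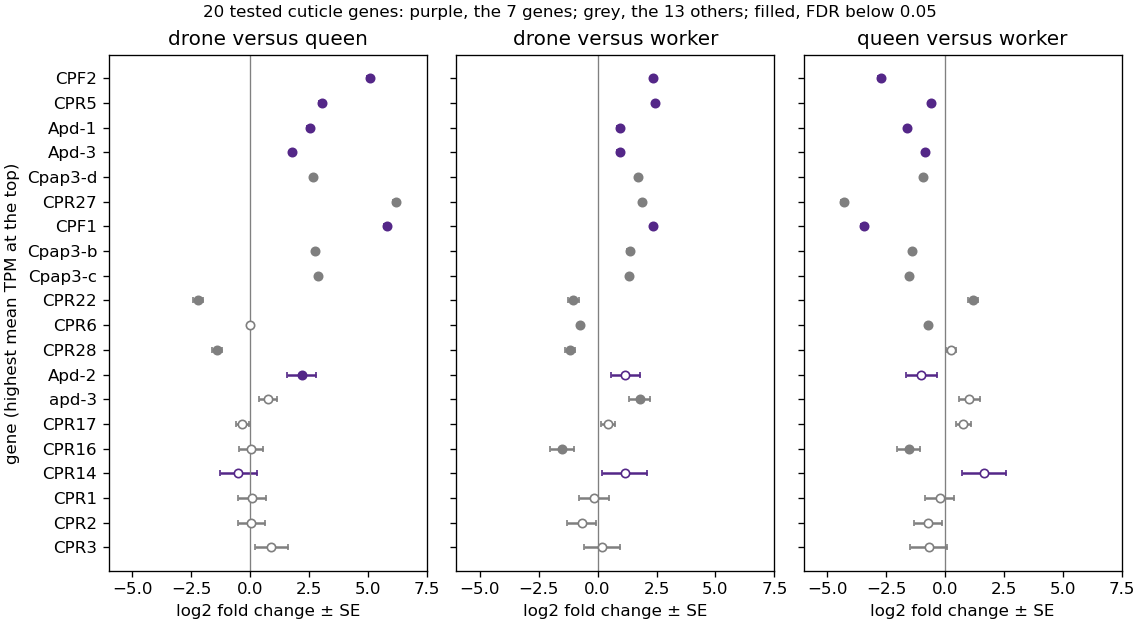
Log2 fold change with its SE for the 20 tested cuticle genes in the 3 comparisons, ordered by mean TPM with the highest at the top. Purple points are the 7 genes and grey points the 13 others, filled where the FDR was below 0.05. CPR27, Cpap3-b, Cpap3-c and Cpap3-d lay on the same side of 0 as CPF1 and CPF2 in each panel, whereas CPR22 lay on the other side in each.

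Genes of cuticle maturation were represented by the yellow family, known from the darkening of the cuticle in Drosophila. Of 4 matched yellow genes 3 were tested, and all 3 were lower in drones than in queens, against 16.9% of all genes tested. Y-f had 949 and 1008 TPM in drones, 2050 and 2076 TPM in queens, and 1798 and 1688 TPM in workers (log2 fold changes -0.69 for drones over queens and -0.61 for drones over workers, edgeR FDR at most 0.000149). Y-h was higher in queens than in workers (log2 fold change 1.65, edgeR FDR 0.0121). The abundant yellow gene Y-f thus moved against the cuticle protein genes in drones.

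Few genes lie next to a member, and among them LOC113219298 beside CPR5 and LOC724735 beside CPR14 were not tested. None of the tested ones, other than the members themselves, was called in the order drone over worker over queen. That order was found for only 1.86% of all genes tested, so its absence among so few genes is no result about them. LOC727165, next to Apd-2, was higher in drones than in queens (log2 fold change 0.89) but lower in drones than in workers (-0.72). LOC727145, next to Apd-3, was lower in drones than in queens (-1.02) and higher in drones than in workers (2.18). On chromosome 15, LOC726651 next to CPF1 had 10.3 and 13.6 TPM in drones, 7.32 and 8.87 TPM in queens, and 10.8 and 7.23 TPM in workers. It was higher in drones than in queens (log2 fold change 0.96, edgeR FDR 0.00544) and than in workers (0.63, edgeR FDR 0.0485), and between queens and workers it had a log2 fold change of -0.32 (edgeR FDR 0.307). The long noncoding RNA gene LOC113219266 on the other strand overlaps CPF2 by 16 bases, and it was called in no pair. LOC411525, which follows CPR5 on chromosome 16, was higher in drones than in queens (log2 fold change 3.52) and than in workers (3.12), at 14.4 and 14.5 TPM in drones against 1.42 and 3.07 TPM in queens and 2.70 and 1.98 TPM in workers. Between queens and workers LOC411525 had a log2 fold change of -0.41 (edgeR FDR 0.440).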

How the data were processed

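Poly(A) RNA from pooled central brains was sequenced in 6 stranded paired-end libraries. The authors quantified the reads with Kallisto (version not given in the sources used here) against EnsemblMetazoa cDNA and non-coding RNA sequences of Amel_HAv3.1. They deposited estimated counts and TPM for 28409 transcripts per library. The estimated counts are not normalized.

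Deposited exon coordinates of 28381 transcripts were matched to RefSeq genes of the same assembly, and 28226 transcripts fell within 12286 genes. The matched transcripts held between 89.6% and 92.7% of a library. The others were left out of tests, ranks and CPM values, whereas shares of a library are of all its counts. Counts were summed per gene and rounded, and a minimum of 5 counts in at least 3 libraries left 9685 genes. The study used sleuth. Here edgeR 4.0.16 in R 4.3.3 was used, with TMM scaling, a quasi-likelihood model of phenotype alone fitted to all 6 libraries and Benjamini-Hochberg adjustment (FDR) over all genes, called at 0.05. SEs were derived from the log2 fold change and the F statistic. The tests were tried on simulated data. Alternatives used DESeq2 1.42.0, limma 3.58.1, other scalings, filters and features, thinning, a replicate block and libraries left out.

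The members and gene lists were chosen with earlier results of these data known. The rule for names took all 7 members, the 3 other cuticle genes of highest mean TPM, the gene most correlated with each member and the 5 most correlated with their mean. Other genes were named after their values were seen. Names of cuticle protein, enzyme and chitin genes could not be matched by description, since the gene table holds symbols only. Cuticle genes known by a locus number alone may therefore be missing from the lists.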

Additional observations from a re-analysis of the deposited data

How the results depend on the processing

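For Apd-1, Apd-3, CPF1, CPF2 and CPR5, all 285 values of the 15 log2 fold changes under the alternatives kept their direction and call. The number of the 7 genes called stayed between 5 and 6 for drones against queens, 5 and 7 for drones against workers and 5 and 6 for the joint test, and at 5 for queens against workers. Apd-2 and CPR14 rested on few counts and on single libraries. The FDR of Apd-2 for drones against queens was between 0.000751 and 0.391, and the call was lost in 8 of 19 alternatives, among them library totals (0.0508) and limma on log2(TPM + 1) (0.127). Leaving out a library each in turn gave log2 fold changes between -3.96 and 0.21 for CPR14 in drones against queens, between -2.29 and 1.88 for CPR14 in drones against workers, and between -0.27 and 1.81 for Apd-2 in drones against workers. CPR14 in drones against workers was also -0.21 with limma on log2(TPM + 0.1). The causes were not tested, and CPR14 could not be fitted with at least 10 counts required in every library.

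Scaling moved the median of all genes. With library totals it was -0.12 for drones over queens and -0.11 for drones over workers, and 32.6% and 33.4% of calls were higher in drones, against 44.9% and 47.0% with TMM. With limma on log2(TPM + 1) it was -0.28, -0.14 and 0.14 for the 3 pairs, with 16.1%, 25.5% and 73.0% of calls higher in the phenotype named first (53.5% with TMM for queens over workers). With TPM rescaled after the 7 genes were taken out, an alternative chosen after seeing the data, these medians were -0.03, 0.06 and 0.11, with 43.4%, 56.1% and 65.8% of calls higher. The number of genes called also moved. With the most abundant transcript of each gene alone it was 1880, 1749 and 1155 for the 3 pairs and 2300 for the joint test, against 2977, 2767, 2157 and 3765. For queens against workers it was 1282 without queen replicate 1, 1189 without queen replicate 2 and 1307 without worker replicate 1, and for drones against queens it was 1978 without queen replicate 1. The shared replicate numbers were not taken to pair the libraries. Deviations of libraries with the same number correlated at -0.349, -0.088 and -0.017 for the 3 pairs. This check could not exclude pairing, since replicate number and depth went together in each phenotype. With the replicate number as a block, 5 of the 7 genes were called in each pair and in the joint test, the FDR of Apd-2 for drones against queens was 0.0645, and 2458, 2266 and 1686 genes were called in the 3 pairs and 3072 in the joint test.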
